A study of Arabidopsis thaliana with 6 samples.

Results

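AT4G29780 and AT5G52050 are 2 rapid stress-response genes of Arabidopsis thaliana, described here in rosette leaves of the pad4 mutant and the pad4 est1b double mutant. They are 2 of the genes read by 22810 probe sets on the Affymetrix ATH1 array, each through 1 probe set that names no other gene. Both were chosen by their measured signals, because the double mutant exceeded pad4 on the arrays of replicates 1 and 2. Their difference between the genotypes is therefore given as a description, with no test.

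The 3 samples of the pad4 group are labelled as the pad4-1 mutant, and the 3 of the double mutant have pad4-1 and the SALK_073354 insertion that the labels call est1b-1. All 6 samples thus lack normal PAD4, and no sample has a functional PAD4 to compare with. The strain is given as Col for pad4 and Col-0 for the double mutant. The plants grew in soil for 2 weeks at high humidity and 3 weeks at lower humidity, at 22 °C. The labels give developmental stage 3.90 and the tissue leaves for pad4 replicates 2 and 3, and stage 5.10 and developed rosette leaves for the other 4 samples. How many plants went into an array, and whether replicates came from separate plants, is not given in the sources used here, so p-values measure only the spread between these samples.

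AT4G29780 encodes a protein with a nuclease-like domain related to domesticated transposases, and its function is poorly known. Its transcript is among those that rise within minutes to hours of touch, wounding, cold or a pathogen elicitor. AT5G52050, also named DTX50, encodes a transporter of the MATE family (multidrug and toxic compound extrusion), membrane proteins that move small molecules out of the cytosol, and in Arabidopsis it has been described as an exporter of the stress hormone abscisic acid. PAD4, mutated in all samples, promotes defence through salicylic acid.

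The summed signal was between 3405664 and 3894818 units on the 6 arrays. The median signal lay between 21.2 and 31.6, with the lowest on pad4 replicate 3. The leaf genes LHCB4.2 (chlorophyll binding) and RCA (rubisco activase) were at 4990 units or more on every array, while EXPA7, an expansin of root hairs, had no array above 18.4 units. Markers of flowers and seeds could not be read, because none had a probe set assigned to it alone in the annotation used. The mutated genes could not be read through probe sets of their own, so the genotypes were not checked on the arrays. With whole leaves, fewer cells of a type and less RNA per cell cannot be told apart.

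AT4G29780 was low on 2 of the pad4 arrays and high on 2 of the double mutant arrays. Its signal in pad4 was 41.7, 32.4 and 172 units in replicates 1, 2 and 3, and in the double mutant it was 286, 286 and 104 units. The double mutant was thus higher in replicates 1 and 2, whereas in replicate 3, which did not enter the choice, pad4 was higher. The groups overlapped, since pad4 replicate 3 lay above double mutant replicate 3.

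The sample titles give replicate numbers but state no pairing, so comparisons by number are descriptions. Between same-numbered arrays the signal of AT4G29780 in the double mutant was 6.87 times that in pad4 for replicate 1 and 8.82 times for replicate 2. In replicate 3 the signal in pad4 was 1.66 times that in the double mutant. On the log2(signal + 10) scale, which understates changes of dim genes, the differences were 2.52, 2.80 and -0.68. The group means were 82.1 ± 78.1 units in pad4 and 226 ± 105 in the double mutant (SD, n = 3), a mean log2 difference of 1.55 ± 0.60 (SE). This SE, like the others given with log2 differences, is the moderated one of limma, whose variance is drawn towards that of all probe sets. For both genes it is smaller than the SE that their own residual SD would give. The SD in pad4 was close to the mean because of replicate 3, and without that array the mean log2 difference was 2.20.

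AT5G52050 was dimmer and followed the same order of arrays. Its signal in pad4 was 7.17, 3.76 and 36.3 units in replicates 1, 2 and 3, and in the double mutant it was 60.0, 58.2 and 28.2 units. Again the 2 lowest arrays were pad4 replicates 1 and 2, the 2 highest were double mutant replicates 1 and 2, and the replicate 3 arrays stood between them in the reverse order. The groups overlapped here too.

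In replicate 1 the signal of AT5G52050 in the double mutant was 8.37 times that in pad4, and in replicate 2 it was 15.5 times. In replicate 3 the signal in pad4 was 1.29 times that in the double mutant. Because 2 of the 3 pad4 values lay under 20 units, the mean signal that a probe set needed to be kept, these ratios divide by values close to the floor of the array. The log2(signal + 10) differences were 2.03, 2.31 and -0.28. The group means were 15.7 ± 17.9 units in pad4 and 48.8 ± 17.9 in the double mutant (SD, n = 3), with a mean log2 difference of 1.35 ± 0.48 (SE). This mean difference was 2.22 with no offset and 0.82 with an offset of 30 units, so its size depends on how dim values are treated. Its probe set averaged 32.3 units over the 6 arrays but only 15.7 in pad4, so it was kept through the double mutant.

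**Figure D1:**
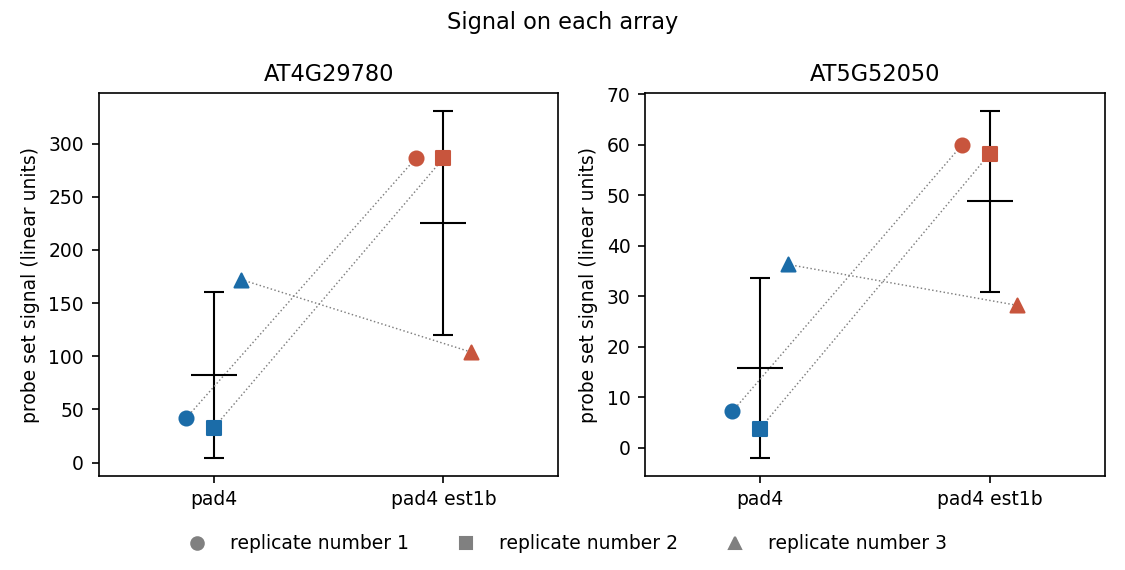
Probe set signal (linear units) of AT4G29780 and AT5G52050 on each of the 6 arrays, with pad4 in blue and pad4 est1b in red; the marker shape gives the replicate number, dotted lines join same-numbered arrays, and black bars show the group mean ± SD (n = 3). In both genes the lines of replicates 1 and 2 go up to the double mutant (41.7 to 286 and 32.4 to 286 units for AT4G29780), and that of replicate 3 goes down (172 to 104 units).

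The order of the 6 levels was the same in both genes, though the 2 top arrays of AT4G29780 were level (286 units in both). Within pad4, replicate 3 had 4.13 times the signal of replicate 1 for AT4G29780 and 5.06 times for AT5G52050. Within the double mutant, replicate 1 had 2.75 and 2.13 times the signal of replicate 3. Each genotype thus held a spread between its own arrays that was of the order of the difference between the genotypes. The residual SD around the group means was 0.98 on the log2 scale for AT4G29780 and 0.75 for AT5G52050. It was larger than that of 96.8% of the probe sets kept for AT4G29780, and of 88.7% for AT5G52050.

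The array with the lowest median signal, pad4 replicate 3, held the highest pad4 value of both genes. The stage label 3.90 was shared by pad4 replicate 2, where both genes were lowest, and pad4 replicate 3, where both were highest within pad4. Among the 4 arrays labelled 5.10, pad4 replicate 1 lay below all 3 double mutant arrays. The log2 difference there was 2.06 for AT4G29780 and 1.72 for AT5G52050. No SE is given for these, because a single pad4 array shows no spread within pad4. The log2 3'/5' signal ratio of the GAPDH control, a measure of RNA integrity that rises as RNA breaks, ran from 0.92 on pad4 replicate 1 to 1.86 on pad4 replicate 3. It was 0.97, 1.64 and 1.53 in the double mutant, so the 2 double mutant arrays with equal levels of AT4G29780 differed in it. The same ratio of the actin control gave another order, from 3.46 on pad4 replicate 3 to 4.85 on pad4 replicate 2. Of the 3 guard cell markers listed, only FMA, a transcription factor gene of the stomatal lineage, could be read. It was at 101, 67.5 and 29.2 units in pad4 against 62.7, 44.4 and 55.1 in the double mutant, so its log2 differences (-0.61, -0.51 and 0.73) had the opposite sign to those of both genes in each replicate. The part of these properties and of this marker in the result was not tested.

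The fit across the array was limma on log2(signal + 10) for the 12804 probe sets kept, and it called 5 of them higher in the double mutant (0.0391%, adjusted p under 0.05) and 0 lower; 0 of the 2 genes were among the 5. By limma 569 probe sets had an unadjusted p under 0.05. The groups did not overlap in 9.81% of the probe sets kept, and neither gene was among these.

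The pattern behind the choice is common on these arrays by sign but not by size. Of the 12804 probe sets, 3886 (30.3%) were higher in the double mutant in replicates 1 and 2, and 1333 (10.4%) were also lower in replicate 3, as both genes were. A log2 difference of at least 2 in both replicates was seen in 15 probe sets (0.117%), among them both genes. Ranked by the smaller of the 2 differences, AT4G29780 was at place 6 with 2.52, just ahead of AT1G07050 with 2.50. AT5G52050 was at place 13 with 2.03, just ahead of the cold- and clock-regulated gene COR27 with 2.02. These ranks use the values that chose the genes and describe where they stand.

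Replicate 3 divided those 15 probe sets. In 7 of them the difference was at least 2 in replicate 3 as well, among them the defensin gene PDF1.2 (3.49, 3.82 and 3.54 in replicates 1, 2 and 3), AT3G53400 (2.88, 2.74 and 2.61) and AT1G36730, which encodes the translation factor eIF5 (2.05, 2.33 and 2.68). In another 7 it was below 0, and those assigned to 1 gene were AT4G29780, AT5G52050 and COR27 (2.02, 2.63 and -0.05). AT1G07050 lay between, with 0.27. Both genes therefore belong to the side whose difference was not seen in replicate 3. A difference of at least 1 in replicates 1 and 2 with a value below 0 in replicate 3 was present in 45 probe sets (0.351%).

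**Figure D2:**
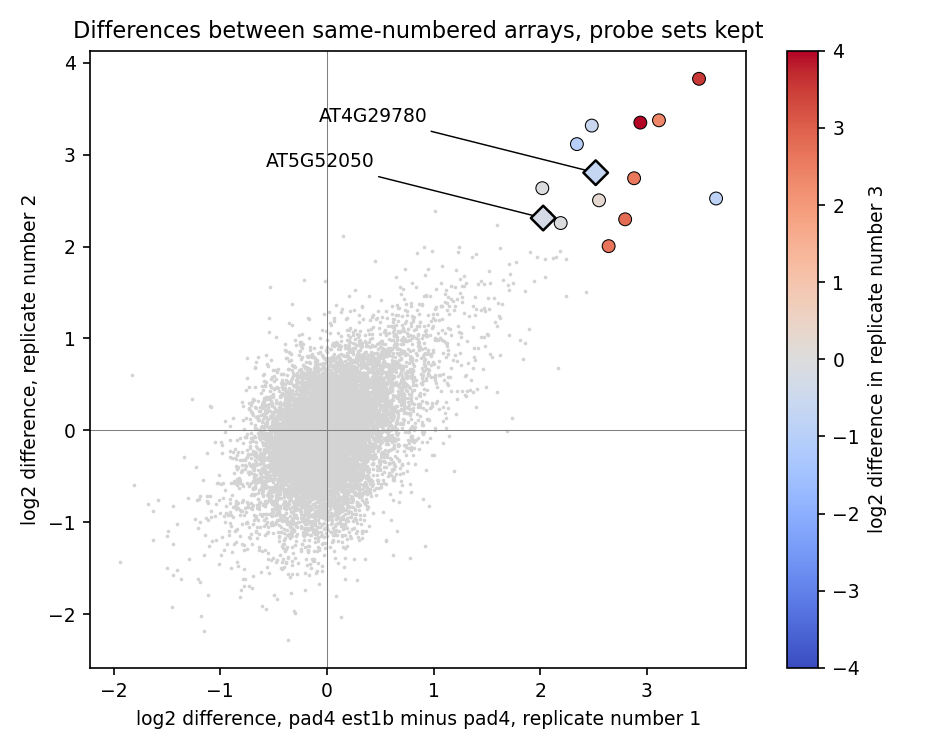
Log2 difference, pad4 est1b minus pad4, in replicate 1 (horizontal axis) against replicate 2 (vertical axis) for the 12804 probe sets kept (grey points); the 15 probe sets at 2 or more on both axes are outlined and coloured by their difference in replicate 3, with diamonds for AT4G29780 and AT5G52050. The 2 genes lie in the upper right corner at 2.52 and 2.80 and at 2.03 and 2.31, in pale blue to grey colours, beside probe sets in red that were also higher in replicate 3; the point of AT1G36730 lies behind the diamond of AT5G52050.

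Among the probe sets with 1 gene, AT4G29780 and AT5G52050 were each the most like the other. Pearson's r between them was 0.994 on the log2(signal + 10) scale over the 6 arrays, and 0.992 after each group's mean was taken away. These points share the arrays and the choice of both genes by the same contrast, so r is a description. In all, 53 other probe sets had r of at least 0.90 with AT4G29780 and 50 with AT5G52050.

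The other genes most like them, up to 5 for each by r over the 6 arrays, were 6 in number. One of them was AT2G27080, an NDR1/HIN1-like gene of a family tied to pathogen responses, with r = 0.957 to AT4G29780. Its signals were 41.4, 23.3 and 141 units in pad4 against 149, 122 and 65.1 in the double mutant. Its log2 differences were 1.63 and 1.99 in replicates 1 and 2 and -1.01 in replicate 3. Like AT4G29780, it was lowest on pad4 replicate 2 and highest on double mutant replicate 1.

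AT4G36430, a class III peroxidase gene, had r of 0.979 with AT4G29780 and 0.981 with AT5G52050. Its signals were small, at 17.0, 14.0 and 25.2 units in pad4 against 34.3, 37.6 and 24.7 in the double mutant. AT5G50450, which encodes a protein with a MYND-type zinc finger, had r = 0.975 with AT4G29780. It was at 251, 190 and 351 units in pad4 against 459, 487 and 289 in the double mutant. In both genes the replicate 3 arrays stood between the other pad4 and double mutant arrays. These genes, like AT2G27080, were picked by r over the same arrays, so a like order follows from the choice.

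The 3 remaining genes moved less. AT3G51370, a protein phosphatase 2C gene, had r = 0.982 with AT5G52050 and signals from 200 to 304 units. AT1G32860, a gene of the glycosyl hydrolase family that cuts beta-1,3-glucans, had r = 0.973 with AT5G52050 and signals from 24.7 to 51.0 units. AT1G16840 had r = 0.967 and signals from 240 to 384 units. The adjusted p of all 6 genes was 1.00 by limma. The probe set of highest r with AT4G29780, 0.997, is not one of those with 1 gene. Its signals were 33.8, 32.6 and 60.1 units in pad4 against 78.3, 74.8 and 47.9 in the double mutant. Another probe set not assigned to 1 gene (r = 0.992) went from 25.3 and 16.7 units in pad4 replicates 1 and 2 to 169 and 221 in the double mutant, with 135 and 61.7 in replicate 3.

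Genes known from Arabidopsis to respond within minutes to hours to touch, wounding, cold or elicitors were examined as a list of 75. Only 17 of these have a probe set of their own, and 12 of the 17 were bright enough to be kept. By limma 0 of the 12 were called in either direction, 0 had an unadjusted p under 0.05, and their smallest adjusted p was 1.00. Their median log2 difference was 0.09, beside 0.03 for all probe sets kept. It was 0.74 without pad4 replicate 3, -0.25 without pad4 replicate 1, -0.19 without pad4 replicate 2 and -0.05 without double mutant replicate 2, so its sign and size changed with single arrays.

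Taken by replicate number, most of these 12 genes had the signs of AT4G29780 and AT5G52050. In replicates 1 and 2, 10 of the 12 were higher in the double mutant, where 30.3% of all probe sets kept were. In replicate 3, 11 of the 12 were lower in the double mutant, where 39.7% of all probe sets were. The median differences were 0.71 in replicate 1, 0.78 in replicate 2 and -1.38 in replicate 3, against -0.004, -0.009 and 0.14 over all probe sets. The list was chosen with earlier results of these arrays known, and same-list genes share their arrays, so these counts are a description.

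The sizes differed from those of the 2 genes. The differences of the 12 genes ran from -0.03 to 1.65 in replicate 1 and from -0.01 to 1.40 in replicate 2, all below those of AT4G29780 (2.52 and 2.80) and AT5G52050 (2.03 and 2.31). Because the 2 genes were chosen on replicates 1 and 2, this gap in size is no test. In replicate 3 the differences of the 12 genes ran from -2.16 to 0.25. Further, 9 of the 12 had their highest signal on pad4 replicate 3, which was so for 21.8% of all probe sets, whereas AT4G29780 and AT5G52050 were highest on double mutant replicates 1 and 2. The 5 listed genes that were too dim to keep had signals from 0.33 to 34.0 units, and 4 of them were also highest on pad4 replicate 3.

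Examples of this, singled out after their values were seen, were STZ, CML38, ORA47 and AT3G10930. STZ (also ZAT10), a zinc finger repressor induced by many stresses, was at 170, 176 and 1289 units in pad4 against 422, 482 and 282 in the double mutant. CML38, a calmodulin-like calcium sensor, was at 68.8, 143 and 797 units in pad4 against 236, 389 and 194 in the double mutant. ORA47, an AP2/ERF transcription factor that acts on jasmonate synthesis, was at 108, 122 and 1063 units in pad4 against 183, 159 and 283 in the double mutant. In each of these the signal of pad4 replicate 3 was above every other array, at 7.31, 5.56 and 8.70 times the higher of the other 2 pad4 arrays. AT3G10930, at 12.0, 21.9 and 209 units in pad4 against 29.5, 60.2 and 52.4 in the double mutant, had a ratio of 9.54.

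Of the 6 listed genes with the smallest p, AT3G01830, a calmodulin-like gene, had r = 0.821 to AT4G29780, but its highest array was pad4 replicate 3. It was at 11.5, 13.2 and 68.3 units in pad4 against 45.5, 40.7 and 47.8 in the double mutant. PUB23, a ubiquitin ligase of immune signalling, was the only one of the 12 that was higher in the double mutant in all 3 replicates, with differences of 1.22, 0.43 and 0.25. AT4G27280, a calcium-binding EF-hand gene, was at 692 units on pad4 replicate 3 and at 147 to 252 on the other arrays.

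AT1G07135, a glycine-rich protein gene, had differences of 0.39, 1.04 and -0.54. The immune transcription factor gene WRKY22 had differences of -0.03, 0.55 and -1.06 in replicates 1, 2 and 3, and WRKY53 had 0.58, -0.01 and -0.18. In replicate 3 the differences of AT3G10930 and of the remaining kept genes AT2G22880 and AR781 were -1.81, -1.71 and -0.63.

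**Figure D3:**
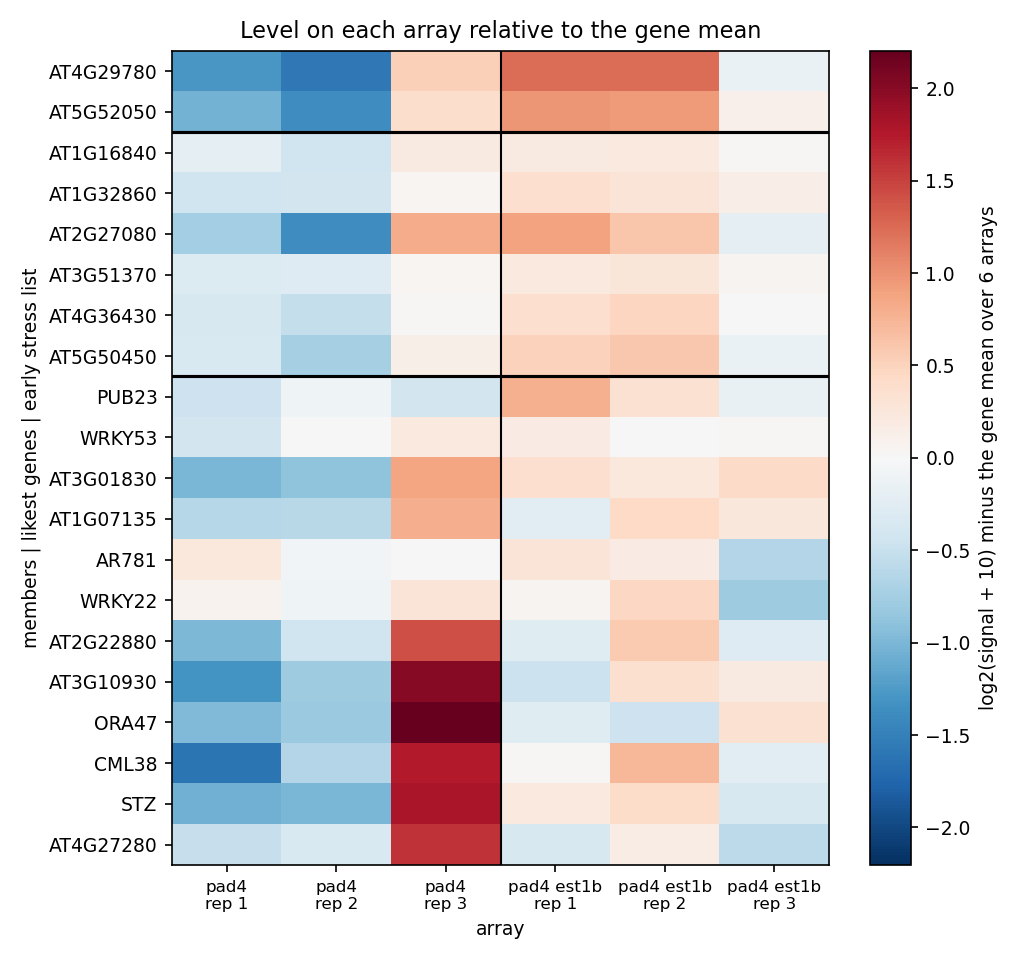
Level on each of the 6 arrays as log2(signal + 10) minus the gene's mean over the arrays (colour) for AT4G29780 and AT5G52050 (top), the 6 other genes most like them (middle) and the 12 early stress genes kept (bottom). The top rows are darkest red on double mutant replicates 1 and 2, while 9 of the 12 genes of the bottom block are reddest on pad4 replicate 3, as for STZ with 1289 units there.

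The relatives of AT4G29780 gave no call. All 4 other nuclease-like genes examined were kept, and 0 were called by limma, with 0 at an unadjusted p under 0.05. AT5G12010 was at 78.5, 125 and 97.3 units in pad4 against 99.4, 116 and 85.4 in the double mutant, with a mean log2 difference of 0.01 ± 0.27 (SE). AT3G55350 had a mean difference of -0.56 ± 0.28 (SE), AT3G63270, also named ALP1, of 0.30 ± 0.27 (SE), and AT3G19120 of -0.18 ± 0.35 (SE). Only AT3G63270 was higher in the double mutant in both replicates 1 and 2, by 0.47 and 0.16. Whether these differences are themselves smaller than that of AT4G29780 was not tested.

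Among the other MATE transporter genes, 34 of the 49 listed have a probe set of their own and 17 were kept. By limma 0 were called, 3 had an unadjusted p under 0.05 (569 of the 12804 probe sets kept did), and the median log2 difference was 0.01. In 6 of the 17 the double mutant was higher in both replicates 1 and 2, as in 30.3% of all probe sets kept. The groups did not overlap in 4 of the 17, where 9.81% of all probe sets kept did not, and these are the first 4 by p-value: AT2G38330, AT3G23550, AT1G66760 and AT1G33110.

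AT2G38330, a MATE transporter gene whose substrate is not stated here, was at 170, 144 and 198 units in pad4 against 416, 473 and 478 in the double mutant. Its log2 differences were 1.24, 1.65 and 1.23, so it was higher in all 3 replicates, unlike AT5G52050. The mean log2 difference was 1.37 ± 0.25 (SE), with an adjusted p of 0.27 by limma. AT3G23550, also named DTX18 and described in Arabidopsis as an exporter of antimicrobial hydroxycinnamic acid amides, was at 127, 115 and 122 units in pad4 against 244, 221 and 422 in the double mutant. Its mean log2 difference was 1.16 ± 0.30 (SE), which did not pass (adjusted p = 0.73 by limma).

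AT1G66760 had a mean difference of -0.61 ± 0.25 (SE) and AT1G33110 of -0.41 ± 0.25 (SE), neither passing, and their 3 differences were all negative. AT1G15170 and AT4G22790 had 0.23 and -0.20. AT1G61890, a MATE gene named after its values were seen, was at 309, 315 and 731 units in pad4 against 411, 562 and 351 in the double mutant. Its log2 differences of 0.40, 0.82 and -1.04 had the signs of those of AT5G52050. Unlike AT5G52050, it was highest on pad4 replicate 3, as most of the early stress genes kept were. The genes of abscisic acid synthesis, transport and response (18 listed) and the calmodulin-binding CAMTA regulators of early stress genes (3 listed) were not read. The annotation used here assigns none of them a probe set of its own, which does not mean that the array lacks them.

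**Figure D4:**
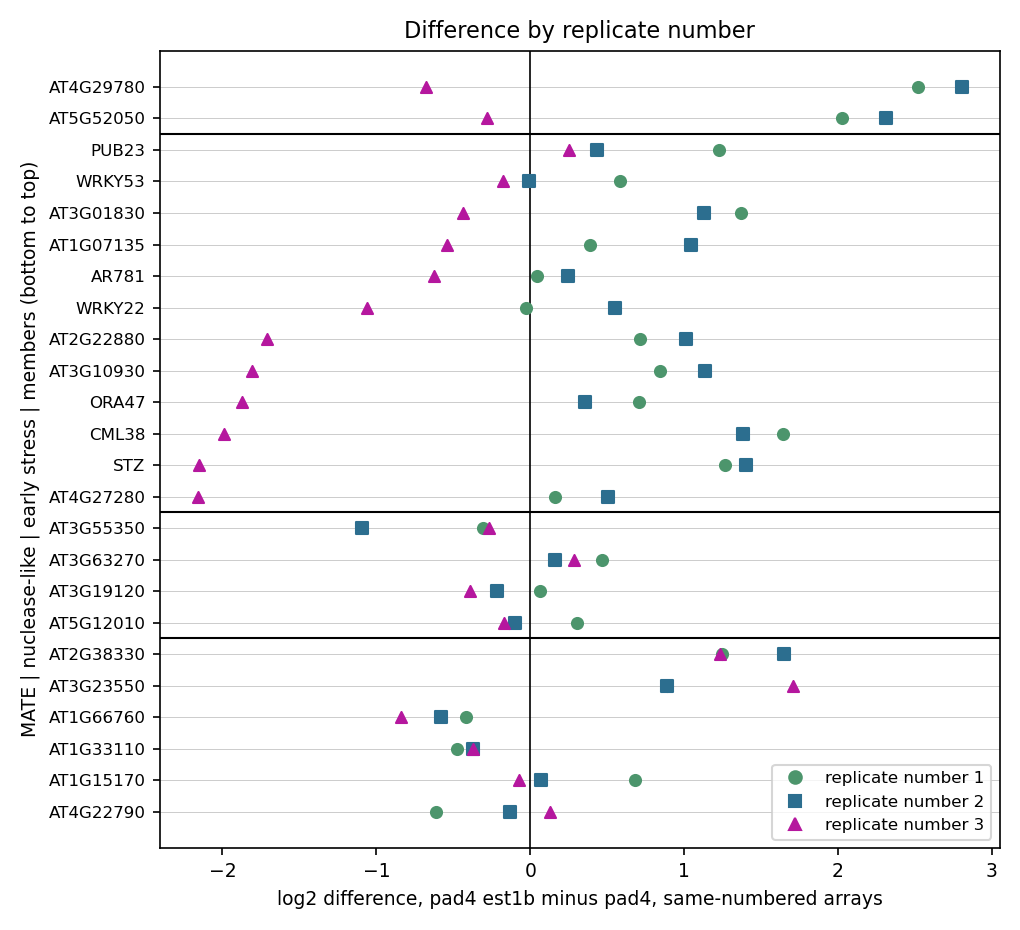
Log2 difference, pad4 est1b minus pad4, between same-numbered arrays for AT4G29780 and AT5G52050 (top), the 12 early stress genes kept, the 4 other nuclease-like genes and the 6 other MATE genes with the smallest p-values; circles, squares and triangles are replicates 1, 2 and 3, with no error bars because each point is 1 pair of arrays. The triangles of AT4G29780 and AT5G52050 (-0.68 and -0.28) lie left of 0 and their circles and squares at 2 or more, whereas the 3 points of AT2G38330 lie together between 1.23 and 1.65.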

How the data were processed

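RNA of 6 leaf samples, 3 per group, was hybridised to ATH1 arrays. The deposited intensity values are linear probe set signals made by the authors with MAS5 and GCOS, per the submitters' processing notes; MAS5 settings are not stated there. By the values, the arrays share a 2%-trimmed mean of 100.0. Groups and replicate numbers came from sample titles. Probe sets were named from the platform annotation: 13513 have 1 gene, and 64 control probe sets were left out. Probe sets with no gene or several genes in that annotation were not named. Genes covered only by such probe sets count as not read.

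To each deposited signal 10 units were added before log2. Probe sets with a mean signal of at least 20 over the 6 arrays were kept (12804, of which 6892 have 1 gene). The genotypes were compared in limma 3.58.1 (R 4.3.3), two-sided, without covariates, with Benjamini-Hochberg adjustment over all probe sets kept and a threshold of 0.05. Precision is limited by 3 arrays per group. Tables were made with pandas 2.3.3 in Python 3.11.15 and figures with matplotlib 3.10.9. The fit was tested on simulated data with the residual SD of each probe set. It called 49.4% of the probe sets given a log2 change of 2 and 1.4% of those given a change of 1. A gene that was not called may therefore still differ. The genes, lists and rules were chosen with earlier results of these data known. Named genes are the 2 genes, the 5 most alike per gene and up to 6 per list by p-value; exceptions are stated. For a listed gene with several probe sets the brightest was used. A planned comparison of promoter motifs and proteins was not run, because no sequences were used here. Alternatives are given in the closing section.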

Additional observations from a re-analysis of the deposited data

How the results depend on the processing

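AT4G29780 had a positive mean log2 difference in 18 of 18 alternatives (1.15 to 2.66) and AT5G52050 in 17 of 17 (0.82 to 2.22). Every alternative keeps arrays of replicates 1 and 2, by which both genes were chosen. Their sign was thus largely set by the choice, and these counts are no test of it. AT5G52050 was too dim for a filter at a mean of 50. Leaving out both replicate 3 arrays was a choice made after the data were seen, and it leaves only the arrays used to choose the genes. It gave 2.66 and 2.17, a median of 0.77 for the early stress list and 16 called probe sets of 12938. Both genes were among the 16, which is no test of them because the same arrays chose them. With no offset AT5G52050 had 2.22. Leaving out 1 array at a time gave 1.15 to 2.20 for AT4G29780, 1.01 to 1.88 for AT5G52050 and -0.25 to 0.74 for the list. With stage as a covariate, or with only the arrays labelled 5.10, the list median was 0.81. The cause of these shifts was not tested.

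Against 5 called probe sets, limma called 0 with no offset, with no filter and with median centring. It also called 0 without probe sets of types that cross-hybridise and with stage as a covariate. Quantile normalization gave 2, an offset of 30 units 5, a filter at a mean of 50 gave 6, and the trend and robust options of limma 6. For the arrays labelled 5.10 no count is given, because they hold a single pad4 array. Leaving out 1 array gave 0 to 9: 9 when pad4 replicate 3 was left out, 1 when double mutant replicate 1 was, and 0 for each of the other 4. Without a filter 6357 of 22746 probe sets (27.9%) were higher in the double mutant in replicates 1 and 2, against 3886 of 12804 (30.3%). The count was thus larger because more probe sets were included, while the share was not larger. The other 12 alternatives that give this count stayed within 1.5 times. It cannot be had when an array of replicate 1 or 2 is left out.

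A fit with a replicate block called 81 probe sets (70 higher, 11 lower), neither gene among them, and of the listed genes only AT2G38330 (adjusted p = 0.020 by limma). Arrays of 1 number deviated together in replicates 1 (r = 0.83) and 3 (0.68) but not 2 (0.0002). The main fit did not take the numbers as pairs. What same-numbered arrays shared in replicates 1 and 3 thus stayed in its residual spread, and which of the 2 fits is the better was not tested.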
